A study of Mus musculus with 6 samples.

Results

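The voltage-gated calcium channel, voltage-gated sodium channel and HCN channel genes were examined in 2 mouse genotypes, with Rb1, p107 and Hells deleted (TKO) or with Rb1 and p107 deleted (DKO). Members were the rows of the count table whose symbol is that of a calcium channel pore, α2δ, β or γ subunit, a sodium channel pore or β subunit, or an HCN channel, except Cacna1f and Cacna2d4. The symbols matched 41 rows of 24062, and 38 of these had a count sum of 10 or more over the 6 retinae and were among the 16904 genes tested, and the values and counts below are of 35 of these. Cacng1 with 9 counts in all, Cacng6 with 0 and Scn10a with 5 were under that minimum. The row Scn2a1, the older name of Scn2a, was outside the symbol rule and is given below as a relative.

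RNA-seq libraries were made from 3 TKO and 3 DKO retinae of C57BL/6 mice at postnatal day 21. Both genotypes carried Chx10-Cre, floxed Rb1 alleles and a germline deletion of p107, and TKO mice carried floxed Hells alleles in addition. Chx10-Cre acts in retinal progenitors in a mosaic pattern, so each retina also held cells that had not recombined. No retina with intact Rb1 and p107 was in the comparison, and nothing in the labels ties a TKO retina to a DKO retina of the same litter.

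Voltage-gated calcium channels consist of a pore subunit, which gives the channel its name and its gating, joined in most types by a cytoplasmic β subunit and an extracellular α2δ subunit that set its trafficking and current. In retinal photoreceptors and bipolar cells, L-type channels open tonically and drive glutamate release at ribbon synapses. Voltage-gated sodium channels carry the spikes of ganglion cells and of some amacrine cells. HCN channels open on hyperpolarization and shape the light response of rods and cones.

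Total counts ran from 10343907 to 14203098 per library. Hells was lower in TKO retinae, with 60.8 to 83.4 normalized counts against 395 to 678 in DKO retinae. Its ratio of TKO to DKO means was 0.133, beside 0.142 for the summed markers of dividing cells described below. Deletion of Hells and fewer dividing cells cannot be told apart in these counts, so they do not by themselves check the label. Rb1, targeted in both genotypes, had 682 to 814 in TKO and 572 to 617 in DKO retinae (log2 fold change 0.34, edgeR adjusted p = 0.0388), and counts over the whole gene need not show the loss of a floxed part of it, so they do not check that label. Rbl1, the gene of p107, had 13.5 to 27.5 and 15.1 to 24.2. SE below is the standard error of a log2 fold change, and a normalized count is a count divided by its library's TMM-scaled size relative to the mean of the 6 libraries. Rod markers (8 of 8 genes) rose in TKO retinae and markers of dividing cells (6 of 6) fell. Their summed normalized counts were 337190 to 684670 in TKO against 114920 to 219180 in DKO for rods, and 400 to 1755 against 4333 to 9461 for dividing cells. TKO replicate 3 and DKO replicate 3 were the libraries closest to the other group on both sums. In whole retinae, more cells of a type and more RNA per cell cannot be told apart.

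In TKO retinae, 4 of the 35 channel genes rose and 3 fell, with 0.05 as the limit for the adjusted p of the quasi-likelihood test in edgeR. Cacnb2, Cacna1s, Scn4a and Scn4b rose, and Cacna2d3, Scn7a and Cacnb3 fell. Over all genes tested, 7.35% rose and 9.20% fell by the same rule (16.6% together), beside shares of 11.4% and 8.57% of the members. With libraries scaled by their total counts alone, 3 members rose and 6 fell, and the background was 4.60% and 15.4%. With the study's added minimum fold change of 2 (1 on the log2 scale) and mean count of 10, Cacna1s and Scn4a were called higher, against 1.97% of all genes. No member was called lower by these criteria with edgeR or DESeq2, against 4.38% of all genes, although 9 members were lower at an unadjusted p of at most 0.05 in edgeR (7 in DESeq2). By that unadjusted rule 6 members were higher with either tool, and over all genes 15.3% were higher and 17.8% lower in edgeR.

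The median log2 fold change of the members was -0.073, beside -0.011 over all genes, and -0.23 beside -0.168 with total counts as the scale. Fitted values were above 0 in 13 members and below 0 in 22 (62.9%, beside 51.2% of all genes). TKO and DKO retinae had separate ranges in 6 members with higher and 8 with lower TKO values, against backgrounds of 18.0% and 20.6% of all genes. At least 1 gene passed among the calcium channel pore, α2δ and β subunits and among the sodium channel pore and β subunits.

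**Figure D1:**
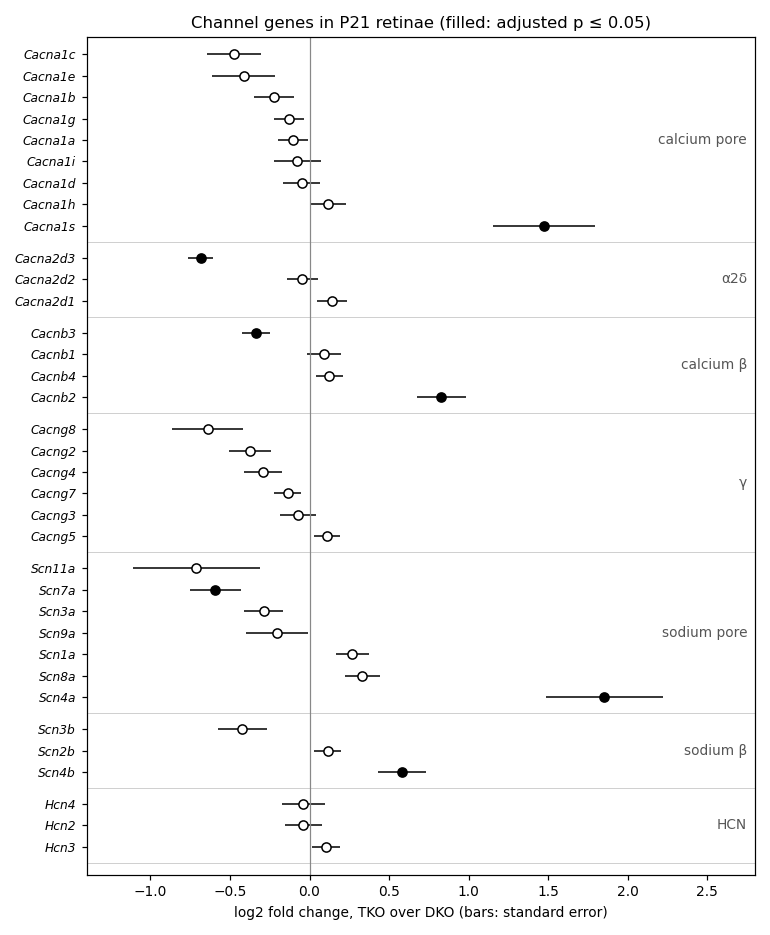
Log2 fold change (TKO over DKO) of each of the 35 channel genes, grouped by subunit family, with its standard error as a bar. Filled points passed an adjusted p of 0.05 from edgeR, and Scn4a at 1.85 and Cacna1s at 1.47 lie farthest to the right.

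The sequences upstream of the start sites were taken from RefSeq (GRCm38.p6), which held 38 windows for 28 of the 35 members. The first 250 bases of each window, which end at the annotated start, were searched on both strands for TAATCC, the core of sites bound by the photoreceptor factor CRX, for TGCTGA, a half-site of NRL, and for the E2F letters TTTCGCGC and TTTGGCGC. TAATCC was found in 3 of the 38 windows (7.89%), beside 6.25% of all 32851 windows, and TGCTGA in 7 (18.4%), beside 16.1%. The E2F letters were in 0 of the 38 windows and in 0.654% of all windows. The median share of G and C bases was 61.8% in the members' windows and 52.4% in all windows. The shares of windows with these letters were not adjusted for it. Among genes that rose, the Cacna1s window held both TAATCC and TGCTGA and the Scn4a window held TGCTGA. RefSeq and GENCODE place these starts differently, so the matches in both genes lie upstream of the RefSeq start and inside the GENCODE gene. The Scn7a window, of a gene that fell, held both as well, so these letters were present in both directions of change.

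To show these letters in place, the bases upstream of the annotated exon are given for Scn7a, and short stretches around the matches for Cacna1s and Scn4a. The windows of Cacna2d3, which had the smallest adjusted p of the members, and of the downstream start site of Cacnb2 are given as windows with no match, without bases that lie in annotated exons. Capitals mark the CRX and NRL letters on either strand. The stretches lie at chr2:66784915-66785160 (minus strand), chr1:136052747-136052772 and chr1:136052785-136052810 (plus strand), chr11:106349581-106349606 (minus), chr14:29721865-29722114 (minus) and chr2:14823842-14824025 (plus), in the order printed.
Scn7a: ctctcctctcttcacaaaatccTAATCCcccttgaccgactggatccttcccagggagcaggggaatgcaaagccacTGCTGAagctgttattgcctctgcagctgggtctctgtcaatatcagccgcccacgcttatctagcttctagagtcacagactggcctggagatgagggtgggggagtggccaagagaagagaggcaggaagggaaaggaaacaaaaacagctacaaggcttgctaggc
Cacna1s, first match: gcagagagagTAATCCtcccgccccc
Cacna1s, second match: tctgcctgccTCAGCAggataggctc
Scn4a: gtcctgtgcaTCAGCAcactcaggtc
Cacna2d3: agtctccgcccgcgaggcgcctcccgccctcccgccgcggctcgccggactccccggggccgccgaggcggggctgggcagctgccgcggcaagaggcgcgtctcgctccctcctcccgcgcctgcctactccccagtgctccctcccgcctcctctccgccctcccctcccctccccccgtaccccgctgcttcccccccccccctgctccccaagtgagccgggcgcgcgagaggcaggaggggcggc
Cacnb2: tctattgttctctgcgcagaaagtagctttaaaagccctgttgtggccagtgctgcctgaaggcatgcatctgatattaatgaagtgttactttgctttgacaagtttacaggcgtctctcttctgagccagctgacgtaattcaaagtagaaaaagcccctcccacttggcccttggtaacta

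The pore subunits of calcium channels included 9 tested genes, 7 of them with fitted values below 0, as had 51.2% of all genes. Cacna1s, the L-type pore subunit known as the voltage sensor of skeletal muscle contraction, was the 1 gene of the 9 that rose, and 0 of the 9 fell in edgeR and DESeq2 (1 at an unadjusted p of at most 0.05). In TKO replicates 1, 2 and 3 the normalized counts of Cacna1s were 318, 293 and 196, beside 50.8, 120 and 119 in the DKO replicates in the same order. The lowest TKO retina was replicate 3 and it stayed above the highest DKO retina. The means of 269 ± 64.0 and 96.6 ± 39.7 (SD, n = 3 each) were 2.78-fold apart (log2 fold change 1.47, SE 0.320, edgeR adjusted p = 0.0192). It did not pass without TKO replicate 1 (edgeR adjusted p = 0.0622), TKO replicate 2 (0.0747) or DKO replicate 2 (0.0558). The gene occupies bases 136052750 to 136119822 of the plus strand of chromosome 1 (GRCm38), and 20.0% of its exonic bases are shared with a gene annotated on the other strand, so its counts are less certain where strand was not used in the counting.

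The pore subunits known from neurons had smaller fold changes. Cacna1g, a T-type pore subunit that opens near the resting potential, had the largest mean count of the 9. Its normalized counts were 1775, 2031 and 2220 in TKO and 2216, 2107 and 2268 in DKO retinae, and the groups overlapped (log2 fold change -0.13, SE 0.0958, edgeR adjusted p = 0.381). The L-type gene Cacna1c, singled out after its values were seen, had 321 to 477 normalized counts in TKO and 482 to 641 in DKO retinae, with no overlap. Its log2 fold change of -0.47 did not pass (edgeR adjusted p = 0.0883), but it did with total counts as the scale and without TKO replicate 3 (0.0241). The other 6, Cacna1a, Cacna1b, Cacna1d, Cacna1e, Cacna1h and Cacna1i, which encode P/Q-, N-, L-, R- and T-type pores, lay between log2 fold changes of -0.41 (Cacna1e) and 0.12 (Cacna1h), and their smallest edgeR adjusted p was 0.185. Cacna1f, the L-type pore subunit of photoreceptor synapses, which the rule leaves out, showed a log2 fold change of 1.22 (edgeR adjusted p = 0.0132), and Cacna2d4, its α2δ partner, one of 0.97 (0.0202). Without DKO replicate 1 or 2, their adjusted p-values were 0.0555 and 0.0571 for Cacna1f and 0.0807 and 0.0867 for Cacna2d4 (edgeR), and Cacna2d4 also did not pass without TKO replicate 1 (0.0561) or 2 (0.0668).

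Of the 3 α2δ subunit genes, Cacna2d3 fell. The values were 1116, 1043 and 1052 normalized counts in TKO replicates 1 to 3 and 1720, 1822 and 1615 in DKO replicates 1 to 3. The retinae of each genotype were close together and the groups were well apart, with the highest TKO retina under the lowest DKO retina. The means of 1070 ± 39.8 and 1719 ± 104 (SD, n = 3 each) gave a 1.61-fold lower level in TKO retinae (log2 fold change -0.68, SE 0.0779, edgeR adjusted p = 0.00513). That adjusted p was the smallest of the 35 members, and the gene passed in each of 13 alternative analyses (edgeR or DESeq2 adjusted p up to 0.0439). The gene spans 816.9 kb of chromosome 14 from 28904943 to 29721864, the longest span of the members. Cacna2d2, which had the largest mean count of these 3, had 2049 to 2527 normalized counts in TKO and 2253 to 2530 in DKO retinae (log2 fold change -0.045, edgeR adjusted p = 0.785). Cacna2d1, the remaining gene, had a log2 fold change of 0.14 (edgeR adjusted p = 0.332).

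Among the 4 calcium channel β subunit genes, 1 rose and 1 fell. Cacnb2, whose product is the β subunit of photoreceptor and cardiac L-type channels, reached 2224, 2109 and 1603 normalized counts in TKO replicates 1 to 3. The DKO replicates, in that order, had 1025, 995 and 1321. The third retina of each group was the one nearest to the other group, and the groups did not overlap. The log2 fold change was 0.83 (SE 0.151, edgeR adjusted p = 0.0114), a 1.78-fold higher mean. Without TKO replicate 2, DKO replicate 1 or DKO replicate 2, the adjusted p was 0.0533, 0.0536 and 0.056 in edgeR.

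Cacnb3, a β subunit found widely in neurons, had 991, 1166 and 1187 normalized counts in TKO and 1392, 1434 and 1393 in DKO retinae. TKO replicate 1 was the lowest, and the DKO retinae lay within a narrow range above all TKO retinae. The log2 fold change was -0.34 (SE 0.0875, edgeR adjusted p = 0.0356), a 1.26-fold lower mean. It passed without TKO replicate 3 and in none of the other fits with a retina left out, where the adjusted p was 0.0526 (without DKO replicate 3), 0.087 (TKO replicate 2), 0.089 (DKO replicate 1), 0.1 (TKO replicate 1) and 0.119 (DKO replicate 2) in edgeR. Of the exonic bases of Cacnb2, 7.32% are shared with genes annotated on the other strand. Cacnb1 and Cacnb4 were at 0.090 and 0.12 on the log2 scale (edgeR adjusted p = 0.592 and 0.351). The shares of Cacnb2 and Cacnb3 did not overlap between the groups either, but they are made from the same counts and are not further support. In normalized counts per kb of exonic length, Cacnb2 made up 27.7%, 23.9% and 19.4% of the summed β subunit level in TKO replicates 1, 2 and 3, and 12.6%, 12.1% and 15.6% in DKO replicates 1, 2 and 3. Cacnb3 made up 40.7% to 47.5% in TKO and 54.4% to 57.5% in DKO retinae, so it was the largest component in each retina.

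Most γ subunit genes encode TARPs, proteins that carry AMPA-type glutamate receptors to synapses. The γ subunit genes are named for their likeness to that of a muscle calcium channel subunit. Of the 6 γ subunit genes tested, 0 passed with edgeR or DESeq2. At an unadjusted p of at most 0.05, 3 were lower in edgeR (17.8% of all genes) and 2 in DESeq2. Cacng3 had the largest mean count, with 853 to 1091 normalized counts in TKO and 903 to 1069 in DKO retinae (log2 fold change -0.073, edgeR adjusted p = 0.701). Cacng2, Cacng4 and Cacng8, picked out after their values were seen, had TKO retinae below each DKO retina, as did 20.6% of all genes. Their log2 fold changes were -0.37, -0.29 and -0.64 (edgeR adjusted p = 0.0839, 0.134 and 0.0866). Cacng2 and Cacng8 passed with total counts as the scale, and Cacng4 passed without TKO replicate 3. Cacng5 and Cacng7 had log2 fold changes of 0.11 and -0.14. Cacng1, the γ subunit of the skeletal muscle channel, had 1, 5 and 0 counts in TKO and 1 count in each DKO library, so no difference could be detected at this depth.

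Of the 7 sodium channel pore subunit genes described, 1 rose and 1 fell. Scn4a, the sodium channel of skeletal muscle fibres, was measured at 305, 208 and 112 normalized counts in TKO replicates 1 to 3 and at 43.3, 52.5 and 76.8 in DKO replicates 1 to 3. TKO replicate 1 had the highest value and TKO replicate 3 the lowest of its group, still above the highest DKO retina. The means of 208 ± 96.7 and 57.6 ± 17.3 (SD, n = 3 each) were 3.62-fold apart (log2 fold change 1.85, SE 0.368, edgeR adjusted p = 0.0144). It was the largest fold change among the 35 members, and it did not pass without TKO replicate 2, DKO replicate 1 or DKO replicate 2 (edgeR adjusted p = 0.0569, 0.0631 and 0.0674). The gene lies on chromosome 11 from 106318592 to 106353288 on the minus strand and shares no exonic base with another annotated gene.

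Scn7a, a sodium channel relative that senses extracellular sodium rather than voltage, had 268, 265.2 and 341 normalized counts in TKO and 536, 398 and 383 in DKO retinae. DKO replicate 1 was above the rest, and the groups did not overlap (log2 fold change -0.59, SE 0.163, edgeR adjusted p = 0.0425). Without TKO replicate 1 or 2 or DKO replicate 1 or 2, the adjusted p was 0.121, 0.146, 0.122 and 0.0867 in edgeR. On chromosome 2, Scn7a lies beside Scn9a, Scn1a and Scn3a in 1 cluster of sodium channel genes, and these neighbours had log2 fold changes of -0.20, 0.27 and -0.29 that did not pass. Scn2a1, in the same cluster, had 0.11 (edgeR adjusted p = 0.510).

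The main sodium channels of neuronal axons had smaller fold changes than the muscle isoform. Scn1a had the largest mean count of the family, with 1711, 1801 and 1690 normalized counts in TKO and 1550, 1219 and 1546 in DKO retinae. The groups did not overlap, but the log2 fold change of 0.27 did not pass (edgeR adjusted p = 0.113). Scn8a, the channel of nodes of Ranvier and axon initial segments, also had groups that did not overlap, with a log2 fold change of 0.33 (edgeR adjusted p = 0.0718). Scn11a, known from sensory neurons, was at -0.71 (edgeR adjusted p = 0.248) and had the lowest mean count of the members.

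Of the 3 sodium channel β subunit genes described, whose products are small membrane proteins that bind the pore subunit and tune its gating, Scn4b rose. It had 203, 248 and 238 normalized counts in TKO and 132, 156 and 173 in DKO retinae, with no overlap (log2 fold change 0.58, SE 0.151, edgeR adjusted p = 0.0349). Its adjusted p was 0.0902 with total counts as the scale, and 0.129, 0.0568, 0.114 and 0.112 without TKO replicate 2, TKO replicate 3, DKO replicate 1 and DKO replicate 2 (edgeR). Scn2b, which lies beside Scn4b on chromosome 9 and had the larger mean count, had 1502 to 1659 normalized counts in TKO and 1355 to 1568 in DKO retinae (log2 fold change 0.12, edgeR adjusted p = 0.379, or -0.041 with total counts as the scale). Scn3b was at -0.42 (edgeR adjusted p = 0.100).

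Of the 3 HCN genes described, 0 passed in edgeR or DESeq2, and 0 had an unadjusted p of at most 0.05 with either tool. Hcn3, which had the largest mean count of the 3, had 579, 539 and 524 normalized counts in TKO and 484, 517 and 528 in DKO retinae, and the groups overlapped. Its log2 fold change was 0.10 (SE 0.0872, edgeR adjusted p = 0.447), or -0.056 with total counts as the scale, and 17.1% of its exonic bases are shared with Pklr on the other strand. Hcn2 had 397, 505 and 470 against 438, 493 and 478, and Hcn4 235, 296 and 259 against 236, 279 and 296. Both overlapped between the groups, at -0.038 and -0.039 on the log2 scale (edgeR adjusted p = 0.845 and 0.868). Per kb of exonic length, Hcn2 and Hcn3 stood at 147 ± 8.97 and 123 ± 5.52 normalized counts in DKO retinae, and Hcn4, known as the pacemaker channel of the heart, at 44.2 ± 5.05 (SD, n = 3 each).

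**Figure D2:**
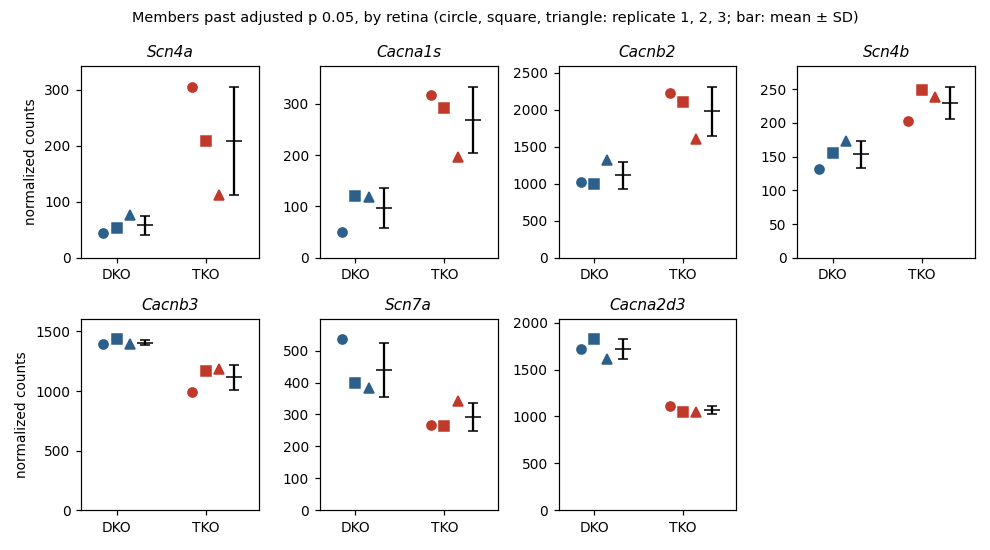
Normalized counts by retina of the 7 channel genes that passed an adjusted p of 0.05, with the mean ± SD of each group of 3 retinae beside the points. In each panel the DKO and TKO points do not overlap, and the SD is smallest relative to the mean for Cacna2d3 in TKO and for Cacnb3 in DKO retinae.

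Levels were set side by side per length, as normalized counts per kb of the summed exons of each gene. Cacna1f and Cacna2d4, which the rule leaves out, have no place in this order. In DKO retinae the highest levels among the 35 genes described were 355 ± 29.9 for Cacng3, 351 ± 6.00 for Cacnb3, 340 ± 21.9 for Cacng7, 317 ± 23.6 for Scn2b and 297 ± 18.6 for Cacna2d2 (SD, n = 3 each). Neighbours among these 5 had ranges that overlapped, and in the whole order 8 of the 34 pairs of neighbours had ranges that did not. Among the pore subunits of these 35, Cacna1g and Cacna1h had the highest levels, at 217 ± 8.10 and 195 ± 14.3 per kb in DKO retinae, above the 129 ± 17.0 of Scn1a. The 4 genes that rose were in the lower part of the order in DKO retinae. Cacnb2 moved from place 22 of 35, at 84.2 ± 13.6 per kb, to place 11 in TKO retinae, at 150 ± 24.98 per kb. Scn4b moved from place 28 to 26, Cacna1s from 31 to 28 and Scn4a from 34 to 30. Exonic length counts all annotated exons, so the level of a gene whose retinal transcripts use few of them is understated.

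**Figure D3:**
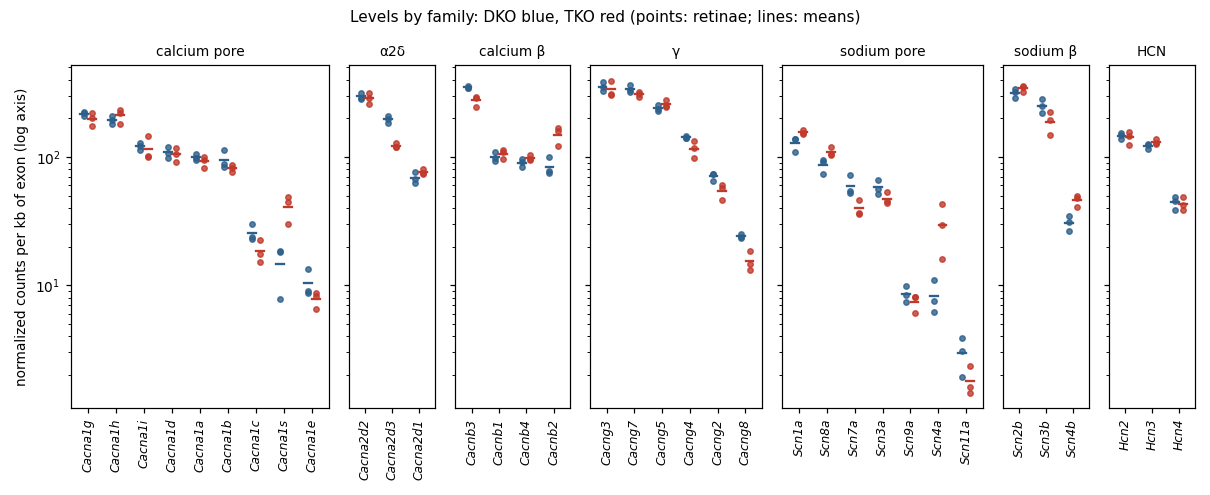
Levels of the 35 channel genes in normalized counts per kb of exonic length on a log axis, by family, with 1 point per retina and a line at each group mean. Within each family genes are ordered by their DKO level, and Cacnb2, Cacna1s and Scn4a have TKO points above their DKO points.

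The order of the retinae in the members that rose was set beside that of the rod markers. Of the 4, TKO replicate 3 was the lowest TKO retina in 3 and DKO replicate 3 the highest DKO retina in 3, as in the rod marker sum. The share of all genes that rose with this order was not counted, so the order cannot be called particular to these members. Scn4b was lowest in TKO replicate 1, where the rod sum was highest, and the highest DKO value of Cacna1s was in replicate 2. Relative to the DKO mean, the rod sum was 4.53, 3.87 and 2.23 in TKO replicates 1, 2 and 3. The corresponding values were 5.30, 3.62 and 1.94 for Scn4a, 3.29, 3.03 and 2.03 for Cacna1s and 2.00, 1.89 and 1.44 for Cacnb2. For Scn4b they were 1.32, 1.62 and 1.55, in another order. Expressed per 100000 rod marker counts, Scn4a had 33.1 to 44.6 normalized counts in TKO and 35.1 to 45.7 in DKO retinae, and these ranges overlapped. Cacna1s (46.4 to 58.2 against 42.8 to 104) overlapped on that scale too. Cacnb2 had 325 to 475 in TKO and 603 to 866 in DKO retinae, so its increase was smaller than that of the rod markers, as was that of Scn4b (29.6 to 70.6 against 78.8 to 136). The part of rod content in these differences was not tested.

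Because Scn4a and Cacna1s are known from skeletal muscle, muscle markers were read beside them. The summed normalized counts of Acta1, Ckm, Myh4, Tnnt3 and Myl1 were 95.2, 2429 and 82.2 in TKO replicates 1, 2 and 3 and 63.1 to 78.8 in DKO retinae, so TKO replicate 2 stood apart. The 5 genes had log2 fold changes from 2.32 to 6.52, and 0 of 5 passed in edgeR. Myh4 was at 0 in TKO replicates 1 and 3 and in DKO replicate 3, and Myl1 in DKO replicates 1 and 3. Scn4a and Cacna1s were highest in TKO replicate 1, and without TKO replicate 2 their log2 fold changes were 1.85 and 1.41 (edgeR adjusted p = 0.0569 and 0.0747). Neither gene passed without that library, where 1.84% of all genes rose rather than 7.35%. Without DKO replicate 2, whose muscle sum did not stand apart, neither passed either (edgeR adjusted p = 0.0674 and 0.0558). The part of muscle tissue in these differences was not tested.

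**Figure D4:**
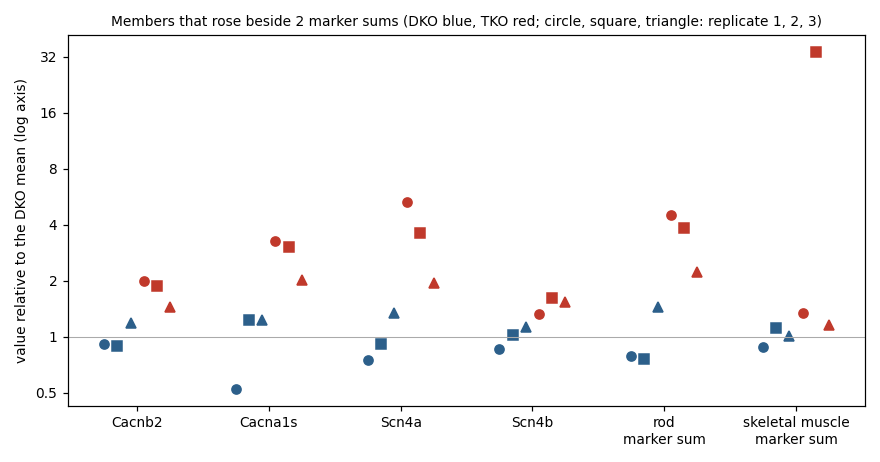
Values of the 4 members that rose and of the rod and skeletal muscle marker sums in each retina, relative to the DKO mean, on a log axis. The rod sum lies at 4.53, 3.87 and 2.23 in the TKO retinae, and the muscle sum lies at 34.1 in TKO replicate 2 and between 0.886 and 1.34 in the other 5 retinae.

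Markers of the inner retinal neurons, where many of these channels are used, were read as well. Amacrine markers had summed normalized counts of 18017 to 21617 in TKO and 19652 to 22050 in DKO retinae, with 0 of 8 genes past the threshold in edgeR. Ganglion cell markers had 19576 to 21941 and 14930 to 20277, with 1 of 9 genes higher, and bipolar markers 15529 to 21036 and 14305 to 16633, with 1 of 8 higher. Horizontal cell markers had 4223 to 5122 and 4118 to 4389, with 1 of 5 higher (Sept4), while Lhx1, Onecut1 and Onecut2 had log2 fold changes of -0.87, -1.24 and -0.70 that did not pass.

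A list of 34 tested partners, most of which anchor, traffic or regulate these channels, had 9 genes higher and 2 lower in TKO retinae. These were 26.5% and 5.88%, beside 7.35% and 9.20% of all genes. The list was written by hand with earlier results of these data known, so the shares are a description only. It also holds Nalcn, Unc79 and Unc80, genes of a separate sodium leak channel, and Unc80 was among those that rose (edgeR adjusted p = 0.0399). By the study's 3 criteria, 3 partners were higher and 1 lower, beside 1.97% and 4.38% of all genes. Cabp4, the calcium-binding protein that modulates the photoreceptor L-type channel, had 2433, 2135 and 1529 normalized counts in TKO and 560, 554 and 906 in DKO retinae (log2 fold change 1.59, edgeR adjusted p = 0.00706). Pex5l, which encodes the HCN accessory subunit TRIP8b, had 6134, 5093 and 3851 against 1737, 1917 and 2833 (log2 fold change 1.22, edgeR adjusted p = 0.0109), with no overlap. Cabp4 and Pex5l were lowest among TKO retinae in replicate 3 and highest among DKO retinae in replicate 3, as was the rod sum. That order was not counted over all genes, and the part of rod content was not tested. Kcne2, a small subunit of potassium and HCN channels, had a log2 fold change of 1.23 (edgeR adjusted p = 0.0444), and its groups overlapped. Rem2, a small GTPase that inhibits calcium channels, fell (log2 fold change -1.03, edgeR adjusted p = 0.0277), with 29.5 to 47.9 normalized counts in TKO and 66.5 to 82.3 in DKO retinae. Of the 2 partners with the largest mean counts, the axonal adhesion protein gene Nfasc rose (log2 fold change 0.64, edgeR adjusted p = 0.0154) and the anchor gene Ank2 did not pass (0.25, edgeR adjusted p = 0.220). Of these, Cabp4 passed in each fit with a retina left out. Pex5l and Nfasc did not without DKO replicate 1 (edgeR adjusted p = 0.0503 and 0.0549) or DKO replicate 2 (0.0557 and 0.0676). Kcne2 passed without TKO replicate 3 alone and was at 0.0559 to 0.141 without any other retina, and Rem2 was at 0.0802 to 0.11 without TKO replicate 1 or 2 or DKO replicate 1 or 2. The number of partners that rose was 5, 4, 2 and 2 without those same libraries. Over all genes, 3.23%, 1.84%, 1.87% and 1.28% rose in these fits, so the calls were fewer over the whole table. With total counts as the scale, 5 partners rose, beside 4.60% of all genes.

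The number of calls depended on single retinae, for members and for all genes. With TKO replicate 2, DKO replicate 1 or DKO replicate 2 left out, the members that rose numbered 0, 1 and 0 in edgeR, and Cacna2d3 was the 1 member that fell. Over all genes, 1.84%, 1.87% and 1.28% rose in these fits and 2.41%, 2.99% and 2.60% fell, so the calls were fewer over the whole table. At an unadjusted p of at most 0.05, those numbers were 5, 7 and 5. The 6 called members other than Cacna2d3 kept their sign in all 13 alternatives and passed in 7 to 9 of them.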

How the data were processed

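The authors deposited raw counts per gene symbol, with 1 column for each of the 6 retinae. Per the study's methods, read pairs from stranded libraries were aligned to GRCm38 with STAR and counted with HTSeq, while the submitters' processing notes name TopHat2 and featureCounts. Whether strand was used in the counting is not given in the sources used here. The columns were matched to samples and genotypes by the labels. Genes with a count sum under 10 were removed. Counts were tested with edgeR 4.0.16 in R 4.3.3 (TMM, quasi-likelihood F test, default arguments) over 16904 genes with Benjamini-Hochberg adjustment, and standard errors were derived from the fold change and F. The study's 3 criteria required an adjusted p up to 0.05, a log2 fold change beyond 1 in either direction and 10 or more counts on average after DESeq2's scaling. The test was also run on simulated counts. These were given less spread between libraries than the real retinae, so the run does not check the test at the real spread. Alternatives were DESeq2 1.42.0, other scalings and filters, robust dispersions, the replicate number as a block and each retina left out. Coordinates and exonic lengths came from GENCODE M21 (GRCm38), where all 35 genes described were found, and this is not the release that the study names.

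Total counts per library were 10343907 to 14203098, and no replicate pair agreed within sampling noise (chi-square of 8.61 to 25.3 per degree of freedom). The columns carry a different number for each retina, which the labels do not tie to animals, so p-values measure the spread between these samples, which may be technical in part. Retinae that share a replicate number did not deviate together (correlations of 0.0464, -0.0442 and -0.140), so the block was an alternative only. The named genes were every member past an adjusted p of 0.05, the gene with the largest mean count among those described in each family, members under the count minimum, partners that met the 3 criteria, the 2 partners with the largest mean counts, Hells, and the relatives outside the rule. Of the members, 3 are not reported here and entered no count over members. The members and lists were chosen with earlier results of these data known. The partner and marker lists were written by hand. Microglia, endothelium and Müller glia markers are described in the closing section.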

Additional observations from a re-analysis of the deposited data

How the results depend on the processing

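With 4 members higher and 3 lower in the analysis reported, DESeq2, DESeq2's size factors in edgeR, both other filters and robust dispersions gave 4 and 3 as well. Total counts as the scale, under which the median over all genes was -0.168 rather than -0.011, gave 3 higher and 6 lower, a members' median of -0.23, 5 partners higher and 3 lower. With that scale 4.60% of all genes were higher and 15.4% lower. The total count scale added Cacna1c, Cacng2 and Cacng8 to the lower members, and Scn2b and Hcn3, which did not pass, were at -0.041 and -0.056. The replicate block gave 0 higher and 1 lower member (5 and 8 at an unadjusted p of at most 0.05, with 0.142% of all genes higher and 0.485% lower by the adjusted p), 0 higher members by the 3 criteria, and 0 partners in either direction. Replicate numbers are shared labels, not pairs. With 1 retina left out, members higher ran from 0 to 4, members lower from 1 to 6 (1.28% to 9.64% and 2.41% to 11.8% of all genes), members higher by the 3 criteria from 0 to 2, the members' median from -0.14 to -0.028, partners higher from 2 to 8 and partners lower from 0 to 1. Members lower were 1 without TKO replicate 1 and 6 without TKO replicate 3. Partners lower were 1 with DESeq2, with DESeq2's size factors in edgeR, with no filter and with robust dispersions. Cacna2d2, which did not pass, was at 0.030 without TKO replicate 2 and 0.0071 without DKO replicate 1, within a range of -0.12 to 0.030 over the retinae left out. Of the 28 members that did not pass, 16 kept their sign in all 13 alternatives. The causes of these changes were not tested. With 3 retinae a group, single libraries decide calls near the threshold, and genes such as Scn11a have too few counts for small differences to be detected.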

Other observations

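Other marker lists hold genes of immune, glial, vascular and cone cells. Microglia markers, listed for resident immune cells, had 4 of 6 genes lower in TKO retinae, with summed normalized counts of 872 to 1453 against 1816 to 2698. Müller glia markers had 3 of 6 genes higher and 1 lower, with sums of 58947 to 60028 against 46592 to 50389. Endothelial markers had 1 of 4 higher (Pecam1), with overlapping sums of 4350 to 5592 and 4801 to 6182, and cone markers had 2 of 6 higher, with 6397 to 16951 against 4440 to 7310.

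Across the 35 members, the spread between retinae of a group, as SD over mean, ran from 3.4% (Scn1a) to 46.4% (Scn4a) in TKO and from 1.71% (Cacnb3) to 41.1% (Cacna1s) in DKO retinae. Gene span and log2 fold change had a Spearman correlation of -0.135 across the 35 genes, which share libraries and are not replicates.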
